A study of Mus musculus with 8 samples.

Results

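Distal regions that appeared in the anti-HA peak list of dTAG-treated EHMT2-dTAG mouse embryonic stem cells (mESCs), and in no peak list of DMSO-treated cells, numbered 4748 of the 16323 dTAG peaks on chromosomes 1 to 19, X and Y. The members were chosen by the peak calls themselves: a dTAG peak was kept when it shared not 1 bp with a DMSO peak of either HA antibody and when its summit lay more than 1 kb from every annotated GENCODE transcript start. The lists of the series held 70200 peaks in all. In these cells, made from the mESC line KH2 (an F1 of C57BL/6J and 129S1, BL6/129 in the labels), the endogenous Ehmt2 gene encodes EHMT2 fused to a degron and to HA tags, and every group carried this fusion. The groups used here were cells treated for 24 h with DMSO and precipitated with the HA antibody ab9110, cells treated for 24 h with dTAG and precipitated with ab9110, DMSO cells precipitated with the HA antibody C29F4, and input chromatin of the dTAG cells. The labels name the line EHMT2-dTAG-mcherry, the number of clones behind the ab9110 libraries is not given in the sources used here, and mESCs of the study were kept on fibroblast feeders. Each ab9110 group was 1 library, and the C29F4 list had been called on 2 merged libraries, so no difference between DMSO and dTAG had a replicate check and none was tested.

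EHMT2 (G9a) forms a complex with EHMT1 that places the dimethyl mark on lysine 9 of histone H3, a mark of silenced chromatin in euchromatic regions. In the dTAG system a small molecule bridges the degron to an E3 ubiquitin ligase, and the fusion protein is destroyed by the proteasome. An anti-HA antibody has the fusion protein as its target. The paper reports, by Western blot, that dTAG treatment of these cells removed nearly all of the fusion protein. It also describes a weaker anti-HA ChIP-seq signal after depletion at the peaks found while the protein was present. The peak lists used here hold no measure of the protein left in the cells of the dTAG library. Distal regions include enhancers, insulators and repeats, and also starts of transcripts that a given annotation does not hold, such as those of tRNA genes, which RNA polymerase III transcribes from promoter boxes inside the gene.

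The sequences at the strongest summits are shown first because they give the range of base composition among the members. Each is the plus strand of the GRCm38 assembly (mm10) from 50 bases before to 50 bases after the summit, for the 3 highest ranked members with the summit in an exon, in an intron and outside genes. Capitals mark matches to the motifs searched, which here were the GC box GGGCGG, the CCAAT box, the AP-1 motif TGANTCA and a pattern of 4 G runs.
Gm14486 (exon), chr2:30658428-30658528: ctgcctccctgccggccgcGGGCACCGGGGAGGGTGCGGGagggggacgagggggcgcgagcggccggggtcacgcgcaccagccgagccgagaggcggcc
Actn1 (exon), chr12:80168363-80168463: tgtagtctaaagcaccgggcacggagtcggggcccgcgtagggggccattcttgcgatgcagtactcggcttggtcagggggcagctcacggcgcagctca
S1pr5 (exon), chr9:21244860-21244960: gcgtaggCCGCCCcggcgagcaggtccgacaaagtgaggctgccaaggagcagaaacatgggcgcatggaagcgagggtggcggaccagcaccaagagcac
Gm16675 (intron), chr8:46686908-46687008: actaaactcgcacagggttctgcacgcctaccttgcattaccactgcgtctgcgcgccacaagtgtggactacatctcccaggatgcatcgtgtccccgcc
Hnrnpr (intron), chr4:136317827-136317927: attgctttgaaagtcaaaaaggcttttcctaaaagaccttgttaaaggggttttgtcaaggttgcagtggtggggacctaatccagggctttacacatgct
Trim2 (intron), chr3:84228467-84228567: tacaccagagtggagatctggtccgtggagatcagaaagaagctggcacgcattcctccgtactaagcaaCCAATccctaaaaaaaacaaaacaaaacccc
2310047D07Rik (nearest gene), chr5:149229079-149229179: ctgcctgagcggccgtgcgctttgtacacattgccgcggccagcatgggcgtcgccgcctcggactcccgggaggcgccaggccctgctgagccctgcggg
Gclc (nearest gene), chr9:77750683-77750783: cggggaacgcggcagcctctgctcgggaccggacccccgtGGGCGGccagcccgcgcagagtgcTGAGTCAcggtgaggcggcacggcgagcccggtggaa
Gm47564 (nearest gene), chr9:14174292-14174392: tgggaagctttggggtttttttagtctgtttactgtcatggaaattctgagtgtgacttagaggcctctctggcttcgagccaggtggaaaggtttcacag
The Gclc, S1pr5, Gm14486 and 2310047D07Rik summits lay in sequence rich in G, C and CpG, and the Hnrnpr, Trim2 and Gm47564 summits did not. From 100 bases before to 100 bases after the summit, the window used for composition below, GC content was 72.1% at Gclc with 30 CpG, 69.7% at 2310047D07Rik with 24 CpG, 36.8% at Hnrnpr with 1 CpG and 37.8% at Trim2 with 4 CpG.

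A further set is shown because the member of rank 2, near 2310047D07Rik, and other highly ranked members lay over tRNA genes. These are 3 RefSeq-annotated tRNA genes under highly ranked members, each read 5′ to 3′ on its own strand, with the internal promoter element known as the B box, GTTCGANNC, in capitals.
n-TNgtt14 (tRNA-Asn), chr5:149229001-149229074, minus strand: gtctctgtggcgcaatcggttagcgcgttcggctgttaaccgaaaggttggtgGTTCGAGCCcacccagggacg
n-TKctt17 (tRNA-Lys), chr12:70969120-70969192, minus strand: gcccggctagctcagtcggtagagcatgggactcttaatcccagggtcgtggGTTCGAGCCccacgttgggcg
n-TRtcg1 (tRNA-Arg), chr13:23526456-23526528, minus strand: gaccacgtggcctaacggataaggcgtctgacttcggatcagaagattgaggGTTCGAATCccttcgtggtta
All 3 printed tRNA genes held this form of the B box, as did 250 of the 403 annotated tRNA genes (62.0%).

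As a class the members were weak peaks. The share of dTAG peaks with no DMSO peak was 52.7% over all positions and 51.8% among distal peaks, which is the background against which the number of members stands, and since the rule used these calls nothing further is read from it. Fold enrichment, as the peak caller gives it, is the ratio of fragments over the summit to the local background. The same small constant is added to each term before the division, so the value is lower than the plain ratio. Median fold enrichment was 3.59 for the members and ranged from 2.48 to 6.97. The 4410 distal dTAG peaks that did overlap a DMSO peak, called shared distal peaks here, had a median of 3.94 and a maximum of 27.3. Median −log10 q, the caller's adjusted significance, was 1.55 against 2.72. A q under 0.01 was reached by 1230 members (25.9%) and by 3157 shared distal peaks (71.6%). Median peak width was 362 bp for the members and 622 bp for the shared distal peaks.

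Fragment numbers over the summits could be rebuilt from the deposited fold enrichment and p. The members had a median of 8 fragments over the summit, from 7 to 28, above a median background of 1.48 fragments. Shared distal peaks had a median of 12 above 2.22. At most 8 fragments lay over 2706 of the members (57.0%), and 16 or more over 107. The background was at the lowest level of the library, 1.23 fragments, for 1510 members (31.8%) and for 5.12% of the shared distal peaks.

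**Figure D1:**
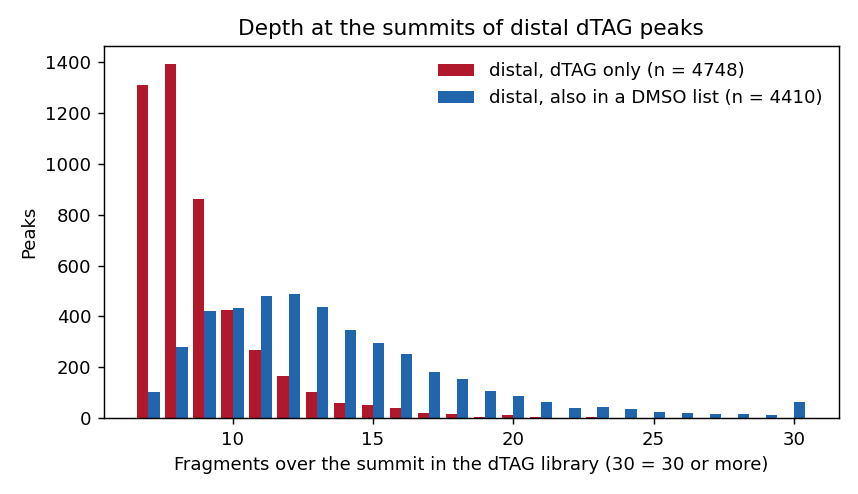
Number of distal dTAG peaks (y axis) by fragments over the summit in the dTAG library (x axis, the last bar holding 30 or more), for 4748 peaks in no DMSO list and 4410 peaks also in a DMSO list. The dTAG-only peaks crowd at 7 to 9 fragments, and the shared peaks centre on 12.

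The DMSO library was the deeper of the ab9110 pair, with a lowest background of 2.11 fragments against 1.23, and its list was longer, with 40816 peaks against 16324. At those lowest backgrounds a region entered the DMSO list from 9 fragments, a fold enrichment of 3.22, and the dTAG list from 7 fragments, a fold enrichment of 3.59. A DMSO region with 8 fragments, a fold enrichment of 2.90, was thus left out. Absence from the DMSO list therefore bounds the DMSO enrichment at such places only to below 3.22. The median of 3.59 among the members covers all local backgrounds. Because 1 is added to both terms of the ratio, fold enrichments of libraries of unlike depth are not on the same scale.

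Most members lay more than 10 kb from any DMSO peak. The median gap to the nearest DMSO peak of either antibody was 17248 bp, 3057 members (64.4%) were more than 10 kb away, and 386 (8.13%) were within 1 kb. For dTAG-only peaks with the summit within 1 kb of a start the median gap was 18162 bp. Gaps were not computed for positions spaced over the assembly, so these values do not show whether the members lay unusually far away. The smallest gaps were 0 bp, where peaks touched without overlapping, at chr4:132350400-132350778 in the Snhg3 gene and at chr13:57136050-57136426. The members closest to a transcript start were 1007, 1009 and 1013 bp away, and the dTAG-only peaks just outside the rule were 999, 998 and 997 bp away, with fold enrichments of 3.46, 4.49 and 3.43 inside and of 3.37, 3.65 and 3.27 outside. The weakest members had a −log10 q of 1.31, the lowest in the dTAG list. Of the members, 5 (0.105%, 95% exact Clopper-Pearson interval 0.0342 to 0.246%) overlapped a peak called in the input chromatin of the dTAG cells. The same held for 30 shared distal peaks (0.680%), and for 0.727% of the dTAG-only and 1.27% of the shared promoter peaks. The input list was short, with 2050 peaks that covered 0.536 Mb, so a low overlap with it says little about any set. Intervals here and below cover counting error only, since peaks of 1 library are not replicates.

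Slightly more members lay outside genes than within them, a lower share outside genes than in the sets compared. The summit was outside genes for 2431 members (51.2%, 49.8 to 52.6%), in an intron for 2037 (42.9%) and in an exon for 280 (5.90%, 5.24 to 6.61%). Exonic summits made up 3.29% (2.78 to 3.86%) of the shared distal peaks and 3.42% of 248739 evenly spaced windows of the assembly, centred every 10 kb and more than 1 kb from starts. Outside genes lay 58.8% (57.4 to 60.3%) of the shared distal summits and 55.8% of these windows. Coding sequence held 107 member summits (2.25%, 1.85 to 2.72%), beside 0.658% (0.441 to 0.943%) of the shared distal summits and 1.02% of the windows. The intervals of the members for exons and for coding sequence did not overlap those of the other sets. Among the 3648 members with the summit over 5 kb from every start the exonic share was 3.32% (2.76 to 3.95%). The other sets were not recomputed at that distance, so this share cannot be compared with theirs. Of the 280 exonic summits, 248 lay in protein-coding genes and 71 within 1 kb of the end of one. Over all members, 2028 summits (42.7%) were in the body of a protein-coding gene, beside 33.9% of the shared distal summits and 37.8% of the windows.

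The strongest exonic members lay in genes of varied function. The peak in Gm14486, a lincRNA gene, at chr2:30658081-30658906, had 20 fragments over its summit and a fold enrichment of 4.47. Actn1, which encodes the actin crosslinker alpha-actinin, held a coding-exon peak at chr12:80168273-80168561 with 17 fragments and a fold enrichment of 4.91. S1pr5, a sphingosine-1-phosphate receptor gene, held one at chr9:21244637-21245083 with 15 fragments and a fold enrichment of 5.21. Apela, which encodes a secreted ligand of the apelin receptor, held one at chr8:65035461-65035926 with 16 fragments and a fold enrichment of 4.96. Rbpj, the DNA-binding effector of Notch signalling, held a peak at chr5:53556662-53557360 with 14 fragments, 790 bp from a DMSO peak. The remaining exonic peaks among the 8 highest ranked lay in C1qtnf4, Rncr4 and Gm26634, with 16, 18 and 14 fragments.

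The strongest member of all was intronic. It lay at chr8:46686689-46687278 in Gm16675, a long non-coding RNA gene, with 25 fragments above a background of 2.96, a fold enrichment of 6.57 and a −log10 q of 10.98. Hnrnpr, an RNA-binding protein gene, held a peak at chr4:136317422-136318125 with 21 fragments and a fold enrichment of 6.26. Trim2, an E3 ubiquitin ligase gene, held the member with the highest fold enrichment, 6.97, at chr3:84228245-84228736, 248 bp from a RefSeq transcript start. The peak in Prdm2, a histone methyltransferase gene of the PRDM family, at chr4:143161670-143162470, lay 4592 bp from the nearest GENCODE start and 17 bp from a RefSeq start. The peak in Trp53, the p53 tumour suppressor gene, had 21 fragments and lay 23 bp from a DMSO peak, and that in Fryl had 19 fragments and lay 304 bp from one. Peaks in AC163629.2 and 4930467J12Rik, both lincRNA genes, had 23 and 13 fragments.

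Outside genes, the highest ranked member lay at chr5:149228388-149229454 over the tRNA-Asn gene printed above, with 23 fragments and a fold enrichment of 6.55, 141 bp from a RefSeq start. The next lay at chr9:77750010-77751117, 3802 bp from Gclc, the catalytic subunit gene of the enzyme that begins glutathione synthesis, with 23 fragments and a fold enrichment of 6.06. The member near Eif1, a translation initiation factor gene, covered 1760 bp at chr11:100322174-100323933 with 18 fragments. Members near Rbpms2 and Cpeb3, both RNA-binding protein genes, had 17 fragments each, at 10233 and 2558 bp from the gene. Those near Gm47564, Olfm2 and AC060761.1 had 18, 18 and 16 fragments.

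The members were close to the assembly at large in repeat content. Soft-masked bases, which mark repeats in the reference, made up 36.1% of the bases of the members, 49.5% of those of the shared distal peaks and 37.3% of those of the windows. The summit lay in an unbroken soft-masked stretch of 5 kb or longer, as long interspersed and retroviral elements can give, for 190 members (4.00%, 3.46 to 4.60%), 1117 shared distal peaks (25.3%, 24.1 to 26.6%) and 4.96% of the windows. Reads that matched several places had been assigned to 1 of the best places at random, so peaks within such repeats are uncertain in position. The shared distal peaks in long repeats mostly held the YY1 motif AAGATGGCG, with 916 of 1117 (82.0%), against 11 of 190 members in long repeats (5.79%, 2.93 to 10.1%).

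CpG-rich sequence was uncommon among the members but more common than in the windows. A summit was called CpG-island-like when this window around it held at least 50% GC and an observed over expected CpG ratio of at least 0.6. Such sequence lay at 293 member summits (6.17%, 5.50 to 6.89%), 668 shared distal summits (15.1%, 14.1 to 16.2%) and 0.528% of the windows, and at 3005 of the 3853 dTAG-only summits within 1 kb of a start (78.0%). Outside long repeats the shares were 5.75% (5.09 to 6.46%) for the members and 6.98% (6.14 to 7.91%) for the shared distal peaks, and these intervals overlapped. Median GC content was 45.8% at member summits, 51.7% at shared distal summits and 41.3% in the windows. No CpG at all was present in the windows around 977 member summits (20.6%), beside 14.0% of the shared distal summits and 31.7% of the windows.

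Matches to the GC box, ETS and YY1 motifs were fewer at member than at shared distal summits, and those to the CCAAT box and TATA motif were more frequent. Motifs were searched on both strands of the same window, and a match is a description of the letters only. The GC box GGGCGG was present at 339 member summits (7.14%, 6.42 to 7.91%), 1048 shared distal summits (23.8%) and 1.59% of the windows. The ETS motif CCGGAAG was present at 70 member summits (1.47%), 677 shared distal summits (15.4%) and 0.514% of the windows. The YY1 motif AAGATGGCG, whose first 3 letters can be the last letters of the ETS motif, was present at 22 member summits (0.463%), 986 shared distal summits (22.4%) and 0.215% of the windows. Outside long repeats these shares were 0.241% (0.121 to 0.431%) for members and 2.13% (1.66 to 2.68%) for shared distal peaks with YY1, and 1.54% (1.2 to 1.94%) and 2.4% (1.9 to 2.98%) with ETS. Both motifs stood in the same window at 545 shared distal summits and at 0 of the members. The CCAAT box was present at 1303 member summits (27.4%), 16.6% of the shared distal summits and 30.0% of the windows, and the TATA motif TATAAA at 13.7%, 5.87% and 19.7%.

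The AP-1 motif TGANTCA was present at 6.55% of member summits (5.86 to 7.29%), 6.69% of shared distal summits and 6.01% of the windows, with overlapping intervals. The E-box CACGTG was present at 3.10%, 3.02% and 1.90%, and the G-run pattern, 4 runs of at least 3 G with gaps of 1 to 7 bases, at 6.63%, 6.21% and 3.21%. The octamer ATGCAAAT was present at 97 member summits (2.04%, 1.66 to 2.49%), 3.20% of shared distal summits and 1.73% of the windows, the ESRRB motif TCAAGGTCA at 51 (1.07%, 0.801 to 1.41%), 1.97% and 0.428%, and the KLF motif CCACACCC at 131 (2.76%, 2.31 to 3.27%), 4.10% and 1.10%. The NRF1 motif GCGCANGCG was present at 36 member summits (0.758%, 0.532 to 1.05%), 0.998% of shared distal summits and 0.0663% of the windows, the CRE motif TGACGTCA at 11 (0.232%), 0.249% and 0.101%, and the ZBTB33 motif TCTCGCGAG at 3 (0.0632%), 0.0227% and 0.00161%. The CTCF core was present at 18 member summits (0.379%, 0.225 to 0.598%), 0.272% and 0.101%. The longer OCT-SOX and REST motifs were at 0 members each, which with an exact interval allows a share of up to 0.0777%, and at 0.0907% and 0.0680% of the shared distal summits and 0.00201% and 0.00844% of the windows. Runs of at least 6 CA units were present at 3.07% of the members, 0.975% of the shared distal peaks and 3.03% of the windows, and runs of GA units at 1.16%, 0.612% and 1.35%.

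**Figure D2:**
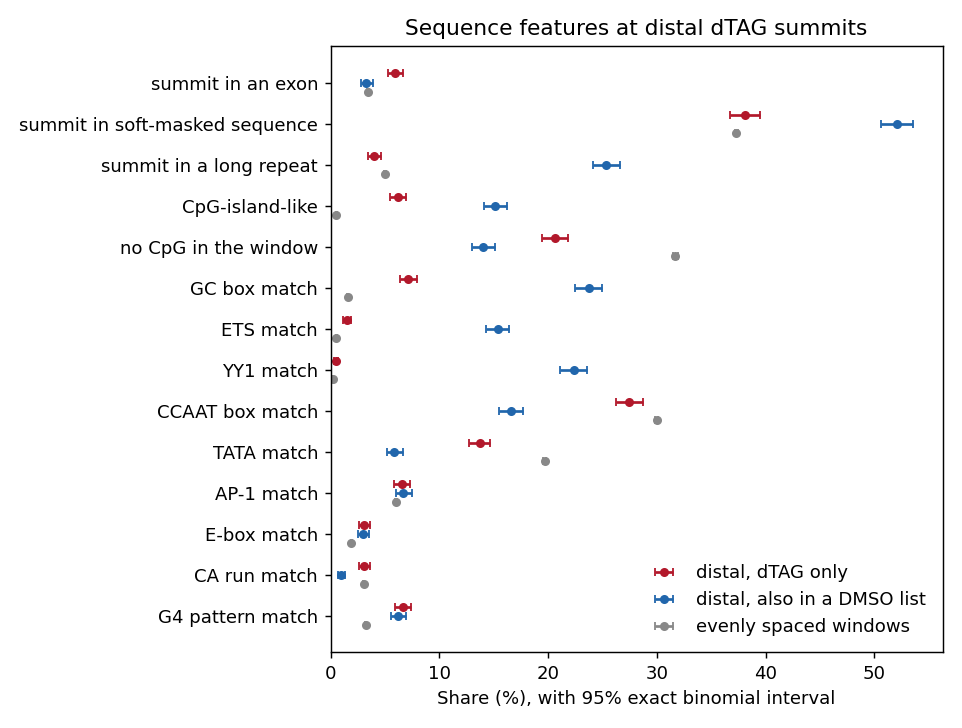
Share of summits or windows (x axis, percent, with 95% exact binomial intervals) that hold each feature or motif match (y axis), for 4748 distal dTAG-only peaks, 4410 distal peaks also in a DMSO list and 248739 evenly spaced windows. Soft-masked sequence lay at 38.1% of the dTAG-only summits, 52.1% of the shared summits and 37.3% of the windows.

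The composition of the members changed with their strength. Peak strength was part of the call that chose the members, so the values are a description. In the weakest class, with −log10 q from 1.3 to 1.5 and 2183 members, 3.34% of summits were CpG-island-like (2.63 to 4.19%). In the strongest class, with −log10 q over 5 and 50 members, 21 were (42.0%, 28.2 to 56.8%). Shared distal peaks ran from 12.2% (9.57 to 15.2%) to 18.6% (16 to 21.4%) over the same classes. Median GC content went from 43.8% to 53.2% between the weakest and the strongest members, soft-masked bases from 39.1% to 24.2%, and the median gap to a DMSO peak went from 20211 to 8111 bp.

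Some strong members were distal by the GENCODE annotation only. Across all members, 158 (3.33%, 2.84 to 3.88%) had a RefSeq transcript start within 1 kb, as had 138 shared distal peaks (3.13%). By strength the share went from 1.97% of the weakest members to 14.0% (5.82 to 26.7%, 7 of 50) of the strongest, and that of the shared distal peaks from 2.15% to 5.36%.

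**Figure D3:**
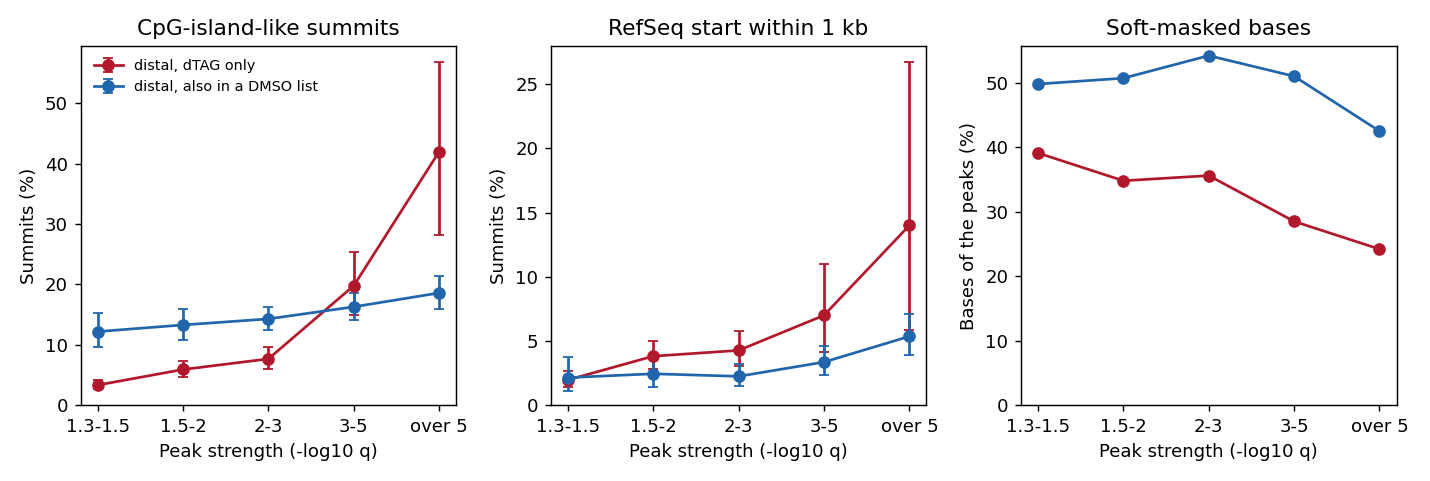
Share of summits in CpG-island-like sequence, share of summits with a RefSeq start within 1 kb, and share of soft-masked bases (y axes, percent) by class of −log10 q (x axes), for distal dTAG-only peaks and for distal peaks also in a DMSO list, with 95% exact binomial intervals in the first 2 panels. The CpG-island-like share of the dTAG-only peaks goes from 3.34% to 42.0%.

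tRNA genes lay under 32 members (0.674%, 0.461 to 0.950%), a feature looked for after the ranking had been seen. They lay under 1.38% (1.06 to 1.77%) of the shared distal peaks and 0.821% of all dTAG peaks. Among promoter peaks the share was 0.311% for dTAG-only and 0.876% for shared ones. Overlap with tRNA genes was thus not particular to the members. The GENCODE annotation listed 2 of the 403 tRNA gene names, so most tRNA starts could not make a peak a promoter peak under the rule. The members covered 35 of the 403 tRNA genes (8.68%), the shared distal peaks 96 (23.8%), the dTAG-only promoter peaks 12 and the shared promoter peaks 42. The whole lists held 185 tRNA genes (45.9%) with dTAG, 149 (37.0%) with DMSO and ab9110, 0 with C29F4 and 0 in the short list of the dTAG input. tRNA genes were thus under peaks of both ab9110 libraries.

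The members over tRNA genes had higher values than the members at large. Their fold enrichment ran from 2.90 over a median of 4.10 to 6.55, with 8 to 23 fragments and a median of 13.5. They were 6 of the 50 highest ranked members. The summit was within 100 bp of the tRNA gene for 28 of the 32, and the B box was in the window around the summit of 15. They carried 17 kinds of tRNA, of which tRNA-Lys was the most frequent with 4 genes. The tRNA-Lys gene printed above lay under chr12:70968189-70969661, with 16 fragments over 1.78 and 237 bp to a DMSO peak.

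Of the 32 peaks, 21 lay on chromosome 13, within a span of 2.37 Mb that also holds a large cluster of histone genes. The span had 103 tRNA genes, 26 members and 115 peaks of the ab9110 DMSO list. The tRNA-Arg gene n-TRtcg1 lay under chr13:23525969-23526958, with 17 fragments and a fold enrichment of 5.86. In bins of 2 Mb, of which 1375 cover the assembly, the median was 3 members, and the bin with the most, 17, was chr13:20000001-22000000, followed at 13 by 3 bins on chromosomes 4, 7 and 8. The same chromosome 13 bin held 87 peaks of the ab9110 DMSO list, against a median of 31.

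The members were spread over the autosomes at 1.52 to 2.50 per Mb, lowest on chromosome 6 and highest on chromosome 8. Chromosome 8 was also the densest for shared distal peaks, with 2.25 per Mb, and the median local background of dTAG peaks there was 3.31 fragments, against 2.22 over all dTAG peaks. Its part in the density was not tested. Chromosome X held 84 members, 0.491 per Mb or 1.77% of all (1.41 to 2.19%), and 212 shared distal peaks, 1.24 per Mb or 4.81% (4.19 to 5.48%). It held 6.32% of the windows, 2.18% (1.74 to 2.69%) of the dTAG-only promoter peaks and 2.11% (1.65 to 2.66%) of the shared promoter peaks. A low share on chromosome X was thus not particular to the members. The median local background of dTAG peaks on chromosome X was 1.48 fragments, and its part in the number of members there was not tested either. Chromosome Y held 1 member.

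**Figure D4:**
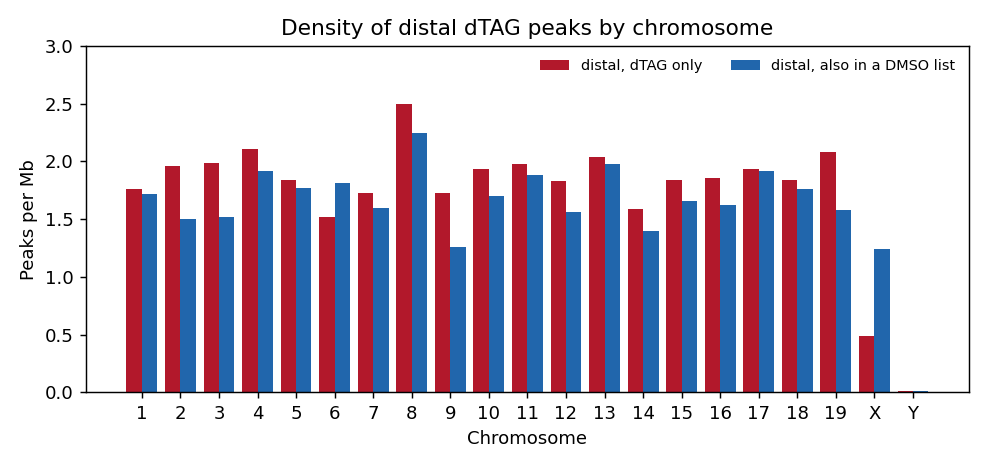
Distal dTAG peaks per Mb (y axis, bars from 0) on each chromosome (x axis), for peaks in no DMSO list and peaks also in a DMSO list. Chromosome 8 is highest in both sets, at 2.50 and 2.25 per Mb, and chromosome X has 0.491 and 1.24.

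Member summits were thinly spread over genes. At least 1 lay in the body of 1733 of 21938 protein-coding genes (7.90%). The 10 genes with the most, with the shorter gene first among the 15 that tied at 4, were largely long genes. Csmd1, which encodes a large transmembrane protein with CUB and Sushi domains, held 7 in 1.64 Mb, Dlg2, a synaptic scaffold gene, 6 in 1.97 Mb, Nkain2 6 in 1.20 Mb, Cntnap2, a neurexin family gene, 5 in 2.24 Mb, and Gpc6, a glypican gene, 5 in 1.05 Mb. Gm20388, annotated over 4.43 Mb that many other genes share, held 6. Nr3c2, the mineralocorticoid receptor gene, held 5 in 0.346 Mb, and Slc8a1, a sodium-calcium exchanger gene, 4 in 0.365 Mb. Asxl1, a Polycomb-associated gene, and Cbfa2t2, a corepressor gene, both on chromosome 2, held 4 each in 0.0582 and 0.103 Mb, and were named because ties went to the shorter gene. Of the 10 genes, 6 held no shared distal summit, and Gm20388 held 17.

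Among gene lists read against that 7.90%, most had few holders. Among 28 pluripotency genes, 3 held a member (10.7%), and 8 (28.6%) held a shared distal peak, beside 5.45% of all protein-coding genes for the latter. Those 3 were Esrrb, with intronic peaks of 12 and 9 fragments, Klf4, with an exonic peak of 10 fragments above a background of 2.01, and Klf2, with an exonic peak of 15 fragments above 4.14. Among 22 genes of H3K9 methylation and the EHMT complex, 0 held a member and 6 (27.3%) held a shared distal peak. Their median length was 40.1 kb, beside 17.4 kb over all protein-coding genes. Only 1.03 Mb of these 22 genes lay more than 1 kb from every start, so nothing is read from the 0 on that list. Prdm2, described above, was not on that list. The 25 genes of the 2-cell stage and the 31 germ layer transcription factor genes held 0 members and 0 shared distal peaks. These genes were short, with median lengths of 4.8 and 6.29 kb. Only 0.376 and 0.489 Mb of them lay more than 1 kb from every start, at 2.17 members per such Mb over all protein-coding genes. With so little sequence open to a member, nothing is read from these counts.

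Genes with the Hsp or Dnaj symbols of heat shock proteins held members in 9 of 71 (12.7%), and their median length was 19.7 kb. Among the holders were Hspa4, Dnaja2, Dnaja3 and Dnajb2, and also Hspbap1, whose product is a partner of a heat shock protein. Genes with the Eif or Eef symbols of translation factors held members in 5 of 68 (7.35%), namely Eif1ax, Eif2ak4, Eif2s2, Eif3h and Eif5b. Of these, Eif2ak4 encodes a kinase that acts on a translation factor and not a factor itself. Zinc finger protein genes held members in 24 of 365 (6.58%). Among families of short genes the numbers were 1 of 83 ribosomal protein genes (Rps15a), 0 of 67 replication-dependent histone genes, 1 of 15 small nucleolar RNA host genes (Snhg3) and 9 of 1093 olfactory receptor genes (0.823%). Of 39 Hox genes, Hoxc5 and Hoxc6 held a member, which was the same exonic peak at chr15:103011157-103011540, with 12 fragments and a fold enrichment of 4.45. Much of a short gene lies within 1 kb of a start and could hold no member under the rule, so for 49 of the 67 histone genes no base was open to one. Per Mb open to a member, ribosomal protein genes held 7.35 members, Hox genes 10.3, pluripotency genes 7.65 and all protein-coding genes 2.17. The first 3 rest on 1, 2 and 4 summits counted per gene. Shared distal peaks per such Mb were 14.7, 0, 23.0 and 1.60 in the same order. Higher densities in ribosomal protein and pluripotency genes were thus not particular to the members. Genes with heat shock protein symbols held 5.64 members per such Mb, on 10 summits, beside 1.69 shared distal peaks.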

How the data were processed

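Peak lists of HA ChIP-seq and of input chromatin from EHMT2-dTAG mESCs were used as deposited. The authors aligned reads to mm10 with STAR 2.7.10, assigned reads with several best places to 1 of them at random, and called peaks with MACS2 2.2.6, keeping q under 0.05 and removing blacklisted regions. Whether an input control entered the calls is not given in the sources used here. Per the labels and the format, the deposited columns hold the fold enrichment (a ratio), −log10 p and −log10 q, and the position of the summit. The series had 8 libraries and 4 lists were used, 3 called on 1 library each and the C29F4 list on 2 merged libraries. The lists hold no total read counts, so the depth was read from the lowest local background: fragments over the summit and background were rebuilt from fold enrichment and p, checked on simulated data, which gives a relative depth of 58.2% for the dTAG against the DMSO library.

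Overlaps were of at least 1 bp. Genes came from GENCODE M21, and tRNA genes, RefSeq starts, soft-masking and sequences from RefSeq GRCm38. Shares carry exact Clopper-Pearson 95% intervals (SciPy). Members were ranked by −log10 q, with the 8 highest ranked per place outside input peaks and the 10 genes with the most summits named, and the sequences of the 3 highest per place shown. Some tRNA genes under highly ranked members are not reported here. The members and lists were chosen with earlier results of these data known. The alternatives were stricter q, wider exclusion around DMSO peaks, 1 DMSO list, other start distances and other definitions of CpG-rich sequence and of input overlap.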

Additional observations from a re-analysis of the deposited data

How the results depend on the processing

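In total 63 values of 7 results were recomputed, of which 40 stayed within the interval, or for counts within 1.5 times, of the value given above. The number of members depended on the q threshold, with 1230 at q under 0.01 and 293 at q under 0.001. At q under 0.01 the exonic share was 7.15%, the soft-masked share 33.2% and the CpG-island-like share 11.5%. At q under 0.001 these were 9.22%, 27.5% and 23.5%, with 52.9% outside genes, 0.341% over an input peak and 16 members over tRNA genes. With summits over 5 kb from every start they were 3.32%, 39.1% and 4.47%, with 55.1% outside genes and 17 members over tRNA genes. With no DMSO summit within 250 bp, 52.7% were outside genes, 39.4% of bases were soft-masked and 7.66% of summits were CpG-island-like. With protein-coding starts only the exonic share was 7.68% and the CpG-island-like share 7.62%. The CpG-island-like share was 3.31% under the stricter definition, over 250 bases on each side of the summit, and, in an alternative chosen after seeing the data, 5.33% without members at RefSeq starts or tRNA genes. The tRNA counts were also added after seeing the data. The cause of these shifts was not tested. No paired analysis was possible because no result came from a test and each ab9110 group had 1 library, and for the same reason no library could be left out. The median member summit rests on 8 fragments, which limits the precision of its position and rank.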
